A study of Sus scrofa domesticus with 16 samples.

Results

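The genes described are ion channels and ion pumps of the pig adrenal gland, together with the subunits that belong to them. They were taken from the annotation of the array by symbol, as genes of potassium channels (KCN), voltage-gated calcium channels (CACN), sodium channels (SCN), chloride channels (CLCN and CLIC), TRP channels (TRPC, TRPM and TRPV), the sodium pump (ATP1A and ATP1B) and calcium pumps (ATP2). KCNK3, KCNK9, KCNJ5 and CACNA1H, channels of the zona glomerulosa, were kept out by the rule. Of these 4 only KCNJ5 had a probe set annotated to it alone. The rule found 47 genes among 6765 genes with a symbol, and each was read from its brightest probe set. Expression was measured in whole adrenal glands of 16 domestic pigs, with 1 array per animal. The 8 high stress animals came from a mixing treatment of high aggressiveness and the 8 low stress animals from one of low aggressiveness. The submitters chose both groups, out of mixed unfamiliar pigs, for a difference in aggression and plasma cortisol, so group membership was not assigned at random. Neither breed, age nor sex is given, and no drug or genetic change is named for either group.

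Ion channels and pumps set the membrane voltage and the cytosolic calcium of adrenal cells. In cortical cells, potassium channels hold the membrane at a negative voltage. Hormones such as corticotropin and angiotensin reduce that potassium current, and calcium then enters through voltage-gated channels and stimulates steroid synthesis. In chromaffin cells of the medulla, action potentials open calcium channels and the entering calcium triggers the release of catecholamines. The sodium pump maintains the gradients on which these currents depend. Calcium pumps return calcium to the endoplasmic reticulum, to the Golgi apparatus or to the outside of the cell.

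Of the 47 genes, 23 had a mean log2 signal at or above 6.15, the 40th percentile of all probe sets and the lower limit for testing, and 24 did not. The 23 comprised 6 of 13 voltage-gated potassium channel genes and subunits, 1 of 4 inward rectifiers, 2 of 5 calcium channel genes, 2 of 3 CLCN genes, both CLIC genes, 1 of 2 TRP channels, 2 of 3 sodium pump genes and 4 of 6 calcium pumps. No voltage-gated sodium channel was matched, and SCNN1A and SCNN1B of the epithelial sodium channel lay below the limit, so no sodium channel was tested although the search was made for them. None of the 5 calcium channel genes encodes the pore, so no voltage-gated calcium channel pore was tested. No KCNK potassium channel was among the 47 either. The remaining 3 tested genes were matched by name only. ATP23 is a protease of the mitochondrial inner membrane, SCNM1 is an RNA splicing factor, and TRPC4AP is an adaptor of a ubiquitin ligase. None of these is a channel or a pump.

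The tissue carried the markers of its main cell types. Of 11 cortex markers on the array 10 passed the same limit, as did 10 of 10 chromaffin cell markers, 5 of 5 zona glomerulosa markers and 6 of 7 smooth muscle markers. Of 4 skeletal muscle markers only CKM passed, and no kidney marker of the list was on the array. Of 3 adipocyte markers FABP4 and LEP passed and ADIPOQ did not. The arrays fell into 2 sets of 8, told apart by a labelling control, the bacterial dap transcript, which is added to each sample. The log2 mean over its 6 probe sets corresponded to a signal of 3097 in the high-spike set and 393 in the low-spike set, as averages over arrays. Both sets were balanced, with 4 animals of each stress group. The 3' to 5' signal ratio of actin, a sign of RNA length, also moved with the set, at 5.28 to 8.80 in the high-spike set and 9.97 to 21.9 in the low-spike set. For GAPDH that ratio went the other way, with a mean of 1.52 in the high-spike set and 1.39 in the low-spike set. Its range was 1.39 to 1.68 in the high-spike set and 1.28 to 1.46 in the low-spike set. By stress group the actin ratio was 5.28 to 15.1 in high stress, against 6.40 to 21.9 in low stress.

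The tested channel and pump genes did not differ detectably between the stress groups. Among the 23 tested, 10 had a higher and 13 a lower mean in high stress, and none passed limma at an adjusted p under 0.05. None had an unadjusted p under 0.05 either. Over all 14399 probe sets 0.00% passed at the adjusted threshold and 3.19% at the unadjusted one. The log2 fold changes ran from -0.38 for KCNE4 to 0.42 for KCNF1, and their median was -0.02, against 0.00062 over 5455 tested genes. The median size of a difference, whatever its sign, was 0.11 on the log2 scale, against 0.09 over those genes. The groups overlapped for all 23 genes, while 0.0208% of all probe sets had groups that did not overlap. For 13 of the 23 the 95% confidence interval lay within 1.5-fold in either direction, and for 21 within 2-fold. The wide intervals of KCNF1 and KCNIP1 left a larger difference possible. Because whole glands were measured, fewer cells of a type and less RNA per cell cannot be told apart.

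**Figure D1:**
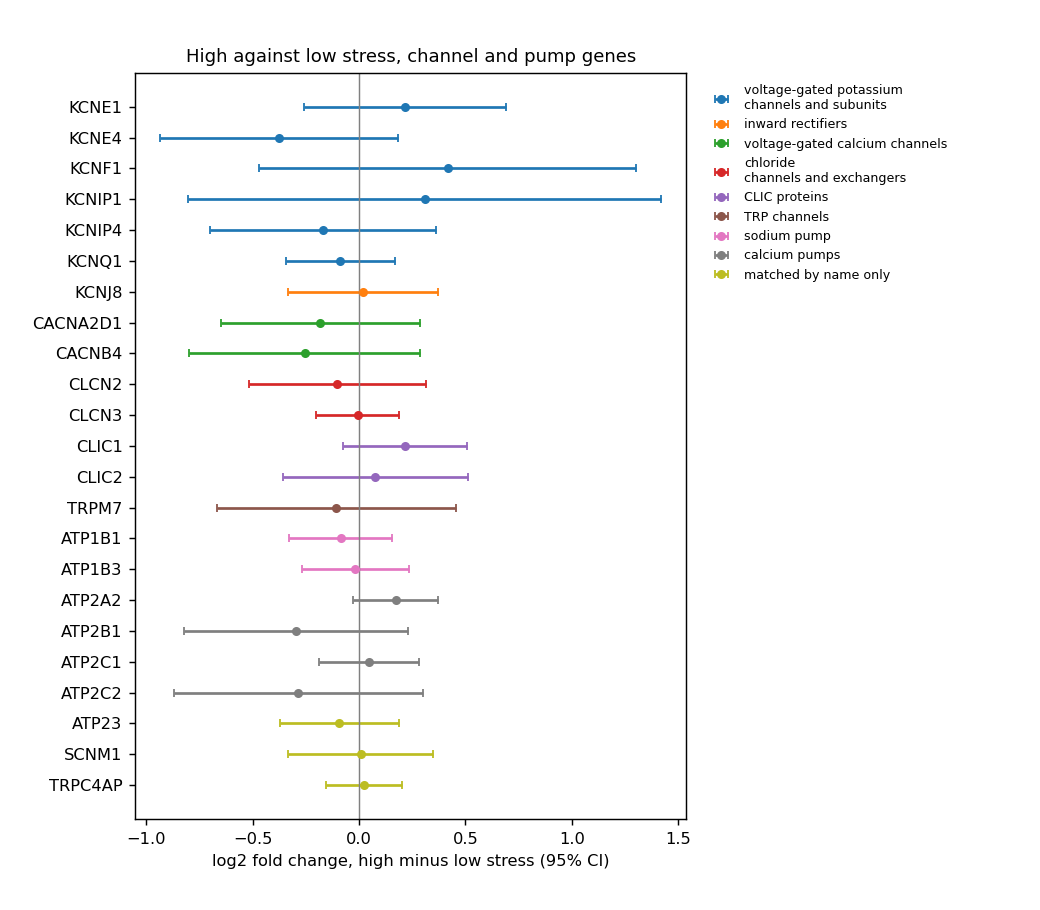
Log2 fold change of high over low stress for the 23 tested genes, coloured by kind of channel or pump (points, estimate; bars, 95% confidence interval from limma, n = 8 animals a group). Every interval includes 0, and those of KCNF1 and KCNIP1 are the widest.

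KCNQ1, the pore-forming subunit of a slowly opening voltage-gated potassium channel, lay close together in the animals. Its log2 signal was lowest at 8.51, at the median 8.67 and highest at 9.07 in high stress, against 8.31, 8.77 and 9.17 in low stress. The difference was -0.09 (95% confidence interval -0.35 to 0.17), and the high stress range fell inside the low stress range. Its partner KCNE1, a single-pass subunit that slows the opening of KCNQ1, lay at 7.68, 8.94 and 9.39 in high stress and at 7.95, 8.71 and 9.07 in low stress. The difference of 0.22 (SE 0.22) was smaller than the SD between animals of 0.48, and the groups shared most of their range.

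KCNE4, a related subunit that inhibits KCNQ1 channels, had the lowest fold change of the 23. Its log2 signal was 5.40, 6.23 and 6.48 (lowest, median and highest) in high stress, against 5.37, 6.76 and 7.47 in low stress. None of the high stress animals exceeded the low stress mean of 6.49, yet 1 low stress animal lay below every high stress animal, at 5.37, and a further 2 lay among the high stress values, at 5.80 and 5.85. The log2 fold change was -0.38 (SE 0.27, 95% confidence interval -0.93 to 0.18, adjusted p = 0.9995 with limma). By array set it was 0.02 in the high-spike set and -0.77 in the low-spike set. In 6 of 16 animals the signal lay below the limit.

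KCNF1, a subunit that forms no channel of its own and modifies other potassium channels, varied widely in both groups. Its log2 signal was 7.27, 8.26 and 9.63 in high stress, against 6.41, 7.81 and 9.17 in low stress, a 9.33-fold span over all animals. The log2 fold change of 0.42 (SE 0.42) was no larger than its error. The calcium-binding subunit KCNIP1, which attaches to a family of fast potassium channels, lay at 5.60, 6.58 and 7.80 in high stress and at 3.13, 6.62 and 7.92 in low stress. The value of 3.13 belonged to low stress replicate 5, far below the other low stress animals. It is a signal of 8.73 on the linear scale, where the limit for testing is 71.1. For KCNIP1 7 of 16 animals lay below that limit. With low stress replicate 5 the log2 fold change was 0.31 (SE 0.53), and without it -0.15, so the sign rested on that animal. KCNIP4 of the same family lay at 7.41, 8.14 and 8.67 in high stress and at 7.58, 8.23 and 9.50 in low stress, a difference of -0.17 (SE 0.25), which became 0.0044 without low stress replicate 3.

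The only inward rectifier above the limit was KCNJ8, the pore of an ATP-sensitive potassium channel known from vascular smooth muscle. Its mean was 6.52 ± 0.35 among high stress pigs, against 6.50 ± 0.34 among low stress pigs (SD, n = 8 each), with 3 animals under the limit. Its difference was 0.02 (95% confidence interval -0.33 to 0.37), and a second probe set of KCNJ8 gave 0.29 (SE 0.17). The zona glomerulosa channel KCNJ5, which is not among the 47, had 0.06 (SE 0.15).

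Both calcium channel genes encode auxiliary subunits that bring the pore to the membrane, and both had lower means in high stress without passing the test. CACNA2D1 lay at 7.06, 7.59 and 8.15 in high stress, against 7.07, 7.83 and 8.54 in low stress, a difference of -0.18 (SE 0.22). CACNB4 lay at 6.10, 6.84 and 7.99 in high stress, against 6.74, 7.18 and 8.29 in low stress, a difference of -0.26 (SE 0.26). In both genes the ranges of the groups overlapped over most of their length.

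Among chloride transport genes, CLCN3, an exchanger of chloride for protons in endosomes, was one of the most even. Its mean was 10.40 ± 0.13 among high stress pigs, against 10.40 ± 0.16 among low stress pigs (SD, n = 8 each). For this brightest probe set the interval of -0.20 to 0.19 bounds any difference at a small size. Other probe sets of CLCN3 above the limit gave 0.06 (SE 0.16) and 0.0015 (SE 0.09). CLCN2, a plasma membrane channel whose overactive variants in humans raise aldosterone, had a mean of 7.83 ± 0.39 among high stress pigs, against 7.93 ± 0.44 among low stress pigs. Its difference of -0.10 (SE 0.20) became 0.02 without low stress replicate 6. CLIC2, a soluble protein that can insert into membranes, differed by 0.08 (SE 0.21).

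CLIC1, the relative of CLIC2 found in most cells, had the second smallest unadjusted p of the 23. Its log2 signal was 11.90, 12.37 and 12.82 in high stress, against 11.71, 12.18 and 12.45 in low stress. In 6 of 8 high stress animals it was above the low stress mean of 12.15, and the lowest high stress animals sat among the low stress ones. The log2 fold change was 0.22 (SE 0.14, 95% confidence interval -0.08 to 0.51, adjusted p = 0.9995 with limma).

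TRPM7, a channel for magnesium and calcium joined to a protein kinase, was the only TRP channel tested. Its mean was 7.66 ± 0.59 among high stress pigs, against 7.76 ± 0.57 among low stress pigs (SD, n = 8 each). The difference of -0.11 (SE 0.27) is a small part of that spread, and it became 0.02 without high stress replicate 4 or without low stress replicate 3.

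The sodium pump was represented by subunits that guide it to the membrane. ATP1B1 had a mean of 11.27 ± 0.20 among high stress pigs, against 11.35 ± 0.22 among low stress pigs (SD, n = 8 each), and a difference of -0.09 (95% confidence interval -0.33 to 0.15). ATP1B3 had a mean of 12.52 ± 0.28 among high stress pigs, against 12.54 ± 0.14 among low stress pigs, and a difference of -0.02 (95% confidence interval -0.27 to 0.24). A second probe set of ATP1B1 gave 0.04 (SE 0.16). No gene of the catalytic subunits (ATP1A) was among the 47, although the search was made for them.

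The calcium pumps held the smallest unadjusted p of the 23, that of ATP2A2, which moves calcium into the endoplasmic reticulum. Its brightest probe set lay at 10.65, 10.92 and 11.12 in high stress and at 10.53, 10.70 and 10.99 in low stress, or 0.17 on the log2 scale (95% confidence interval -0.03 to 0.37, adjusted p = 0.9995 with limma). In 6 of 8 high stress animals it was above the low stress mean of 10.73. Another 2 probe sets of ATP2A2 above the limit gave -0.03 (SE 0.11) and 0.04 (SE 0.15). Both values are smaller than their errors, so these probe sets show no direction of their own.

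ATP2B1, which pumps calcium out of the cell, lay at 7.66, 8.45 and 9.24 in high stress and at 8.24, 8.63 and 9.62 in low stress, a difference of -0.30 (SE 0.25). The pumps of the Golgi and secretory pathway gave 0.05 (SE 0.11) for ATP2C1 and -0.29 (SE 0.28) for ATP2C2. The 3 genes matched by name only had -0.09 (SE 0.13) for ATP23, 0.01 (SE 0.16) for SCNM1 and 0.02 (SE 0.08) for TRPC4AP. TRPC4AP was the steadiest of the 23, with an SD between animals of 0.12.

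The spread between animals differed widely among the genes. The SD within stress groups ran from 0.12 for TRPC4AP to 1.17 for KCNIP1, with a median of 0.42, against 0.28 over all tested genes. The widest spreads belonged to KCNIP1, KCNF1 (0.93), ATP2C2 (0.60) and TRPM7 (0.58), and none of these genes had an interval narrow enough to bound its difference within 1.5-fold. This SD pools the 2 array sets, so it includes any difference between them. For TRPM7 the SD over both stress groups was 0.41 within the high-spike set and 0.28 within the low-spike set. These values were 0.48 and 1.54 for KCNIP1, 1.09 and 0.76 for KCNF1, and 0.63 and 0.57 for ATP2C2.

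**Figure D2:**
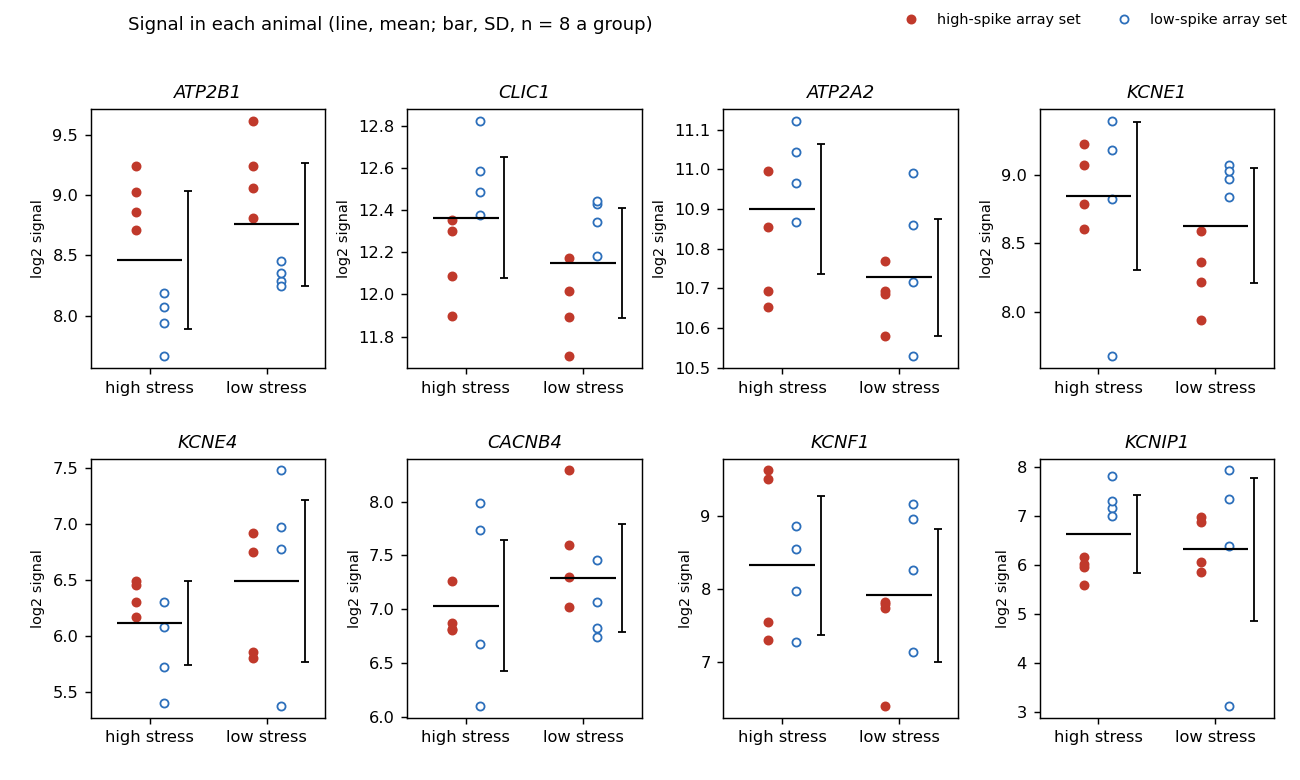
Log2 signal in each animal for 8 genes, high stress at the left and low stress at the right of each panel (filled red points, high-spike array set; open blue points, low-spike array set; horizontal line, mean; bar, SD, n = 8 a group). ATP2B1 separates the array sets without overlap, and KCNIP1 shows the low stress animal at 3.13.

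The array set accounted for more of the variation than the stress group did. In 18 of the 23 genes its share of the variance was the larger, with a median share of 18.5% for the array set and 3.55% for the stress group. Such shares are not given for all probe sets, so they do not set these genes apart. Between the sets 9 of 23 genes (39.1%) passed limma with the stress group as a covariate, against 40.1% of all probe sets, so these genes differed between the sets about as often as others. Higher in the high-spike set were ATP2B1, TRPM7, KCNIP4, CACNA2D1, ATP1B1 and CLCN3, and lower were CLIC1, SCNM1 and KCNQ1. ATP2B1 averaged 9.07 ± 0.29 in the high-spike set and 8.15 ± 0.25 in the low-spike set (SD, n = 8 each), a 1.90-fold difference with no overlap. The sets did not overlap for 6.72% of all probe sets, and among the 23 for ATP2B1 only. TRPM7 was 1.83-fold, KCNIP4 1.74-fold and CACNA2D1 1.69-fold higher in the high-spike set, while CLIC1 was at 0.755 of its low-spike level. What the sets stand for is not stated.

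**Figure D3:**
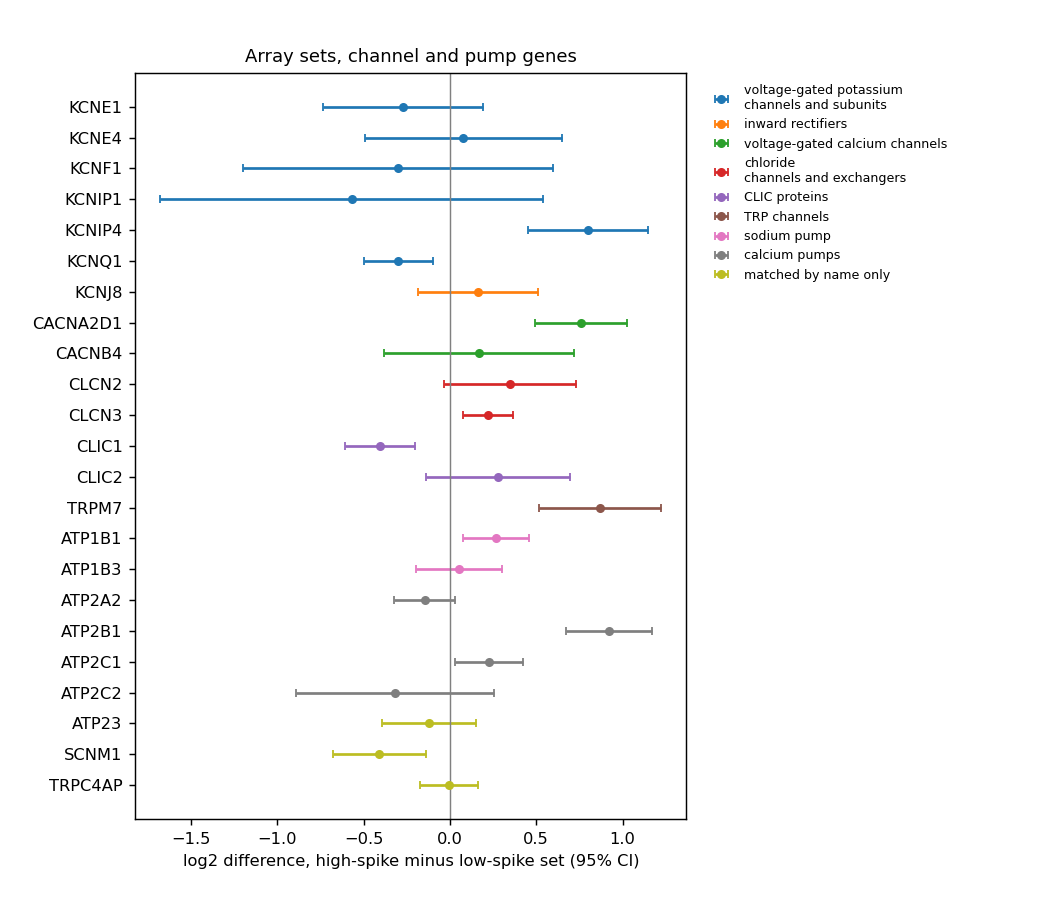
Log2 difference of the high-spike over the low-spike array set for the 23 genes, with the stress group as a covariate (points, estimate; bars, 95% confidence interval, n = 8 arrays a set). ATP2B1, TRPM7, KCNIP4 and CACNA2D1 lie farthest to the right, and CLIC1, SCNM1 and KCNQ1 lie left of 0 with intervals that exclude it.

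With the array set as a block, which leaves each fold change as it was and lowers the error of genes that follow the set, again none of the 23 genes passed (lowest adjusted p = 0.738 with limma, against 0.00694% of all probe sets called). At an unadjusted p under 0.05 were 2 of the 23, or 8.70%, against 6.38% of all probe sets. ATP2B1 had an unadjusted p of 0.0219 on the lower side, with an interval of -0.54 to -0.05 in that fit, and CLIC1 one of 0.0384 on the higher side, with 0.01 to 0.42. For CLIC1 the log2 fold change was 0.21 in the high-spike set and 0.22 in the low-spike set.

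ATP2B1 had a log2 fold change of -0.22 in the high-spike set and of -0.37 in the low-spike set. In the low-spike set its 4 high stress animals lay at 7.66 to 8.18, all below the 4 low stress animals at 8.24 to 8.46. In the high-spike set the groups overlapped, with 8.71 to 9.24 in high stress and 8.81 to 9.62 in low stress. The groups did not overlap in 4.53% of all probe sets within the low-spike set, and ATP2B1 was the 1 gene of 23 (4.35%) there. It was also the 1 gene with an unadjusted p under 0.05 in that set, as had 7.38% of all probe sets, and its adjusted p was 0.639 with limma.

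KCNE1 was the counterpart in the high-spike set, where its high stress animals lay at 8.60 to 9.22 and its low stress animals at 7.95 to 8.59. That gave a log2 fold change of 0.64 (adjusted p = 0.9999 with limma), and 1.71% of all probe sets were without overlap in that set. KCNE1 and CACNB4 had an unadjusted p under 0.05 in the high-spike set, as had 2.83% of all probe sets. In the low-spike set KCNE1 had -0.21, with high stress replicate 6 at 7.68 below every other animal, and 0.15 when that animal was left out. CACNB4 had -0.61 in the high-spike set and 0.10 in the low-spike set. KCNF1 had 1.05 in the high-spike set and -0.22 in the low-spike set.

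Between the sets, 12 of the 23 genes had fold changes of opposite sign and 11 of the same sign. No such count over all probe sets is given, so this split is not a trait of these genes. KCNIP1 had -0.51 in the high-spike set and 1.13 in the low-spike set, which became 0.11 there without low stress replicate 5. None of the 23 passed a test of the difference between the sets with limma (lowest adjusted p = 0.9996, against 0.00% of all probe sets called). KCNE1 alone had an unadjusted p under 0.05 for it, at 0.0481, as had 2.92% of all probe sets.

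**Figure D4:**
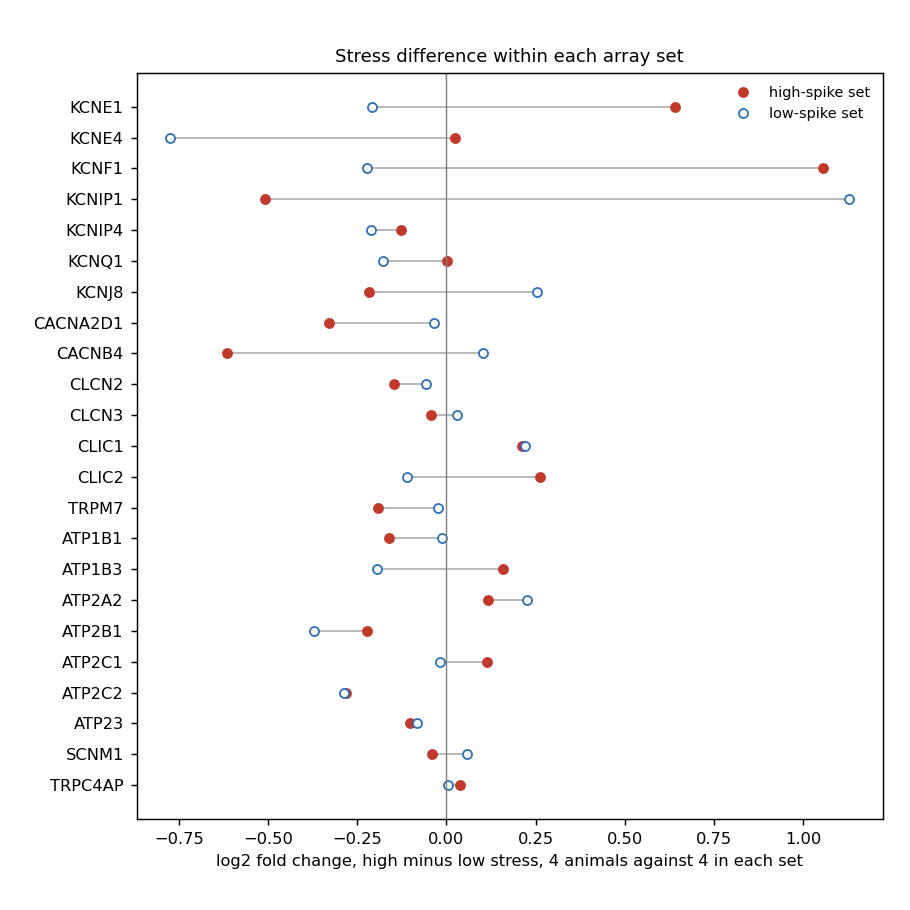
Log2 fold change of high over low stress for each of the 23 genes, computed within the high-spike set (filled red) and within the low-spike set (open blue), with 4 animals a group in each. CLIC1, ATP2A2 and ATP2B1 are among 11 genes that keep their side of 0 in both sets. KCNE1, KCNF1 and KCNIP1 are among 12 that lie on opposite sides.

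The mix of cell types was set beside these values through marker genes. The mean log2 signal of 10 chromaffin cell markers was 11.25 ± 0.32 among high stress pigs, against 11.27 ± 0.31 among low stress pigs (SD, n = 8 each), with a two-sided exact permutation p of 0.891. It ranged from 10.78 to 11.72 in high stress and from 10.82 to 11.74 in low stress. The mean of 10 cortex markers was 13.05 ± 0.11 among high stress pigs, against 13.005 ± 0.17 among low stress pigs (exact permutation p = 0.536, two-sided). The other 7 lists with enough markers had an exact permutation p of 0.181 or more, with every p adjusted over the 9 lists at 0.997. That lowest p belonged to the smooth muscle markers, at 10.02 ± 0.24 among high stress pigs and 9.77 ± 0.44 among low stress pigs. Their difference was 0.25. With the chromaffin marker mean as a covariate no fold change of the 23 genes moved by more than 0.02. The marker mean itself differed by only -0.02 between the stress groups, so this covariate could hardly have moved a fold change.

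Among animals, none of the 23 genes followed the chromaffin marker mean beyond the threshold. The slope, the change in a gene's log2 signal for each log2 unit of the marker mean with stress group and array set in the model, passed limma for 0.306% of all probe sets. Nominally, 3 of the 23 had an unadjusted p under 0.05, as had 5.93% of all probe sets. CACNB4, a subunit of channels that chromaffin cells use for release, had a slope of 0.96 (SE 0.42, adjusted p = 0.804 with limma). KCNJ8 had 0.61 (SE 0.26, adjusted p = 0.804 with limma) and SCNM1 0.48 (SE 0.20, adjusted p = 0.774 with limma). The lowest slope, -1.29 (SE 0.92) for KCNIP1, became 0.02 without low stress replicate 5.

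Slopes on the cortex, smooth muscle, endothelial, fibroblast and nerve marker means passed for none of the 23 genes, and for 0.00% of all probe sets. On the cortex markers 6 of the 23 had an unadjusted p under 0.05, as had 15.8% of all probe sets, with KCNIP4, TRPM7, ATP2C1 and ATP23 on the lower and KCNF1 and SCNM1 on the higher side. That count was 2 for the endothelial markers, against 8.80% of all probe sets, 1 for the fibroblast markers, against 4.11%, and 2 for the nerve markers, against 5.14%.

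**Figure D5:**
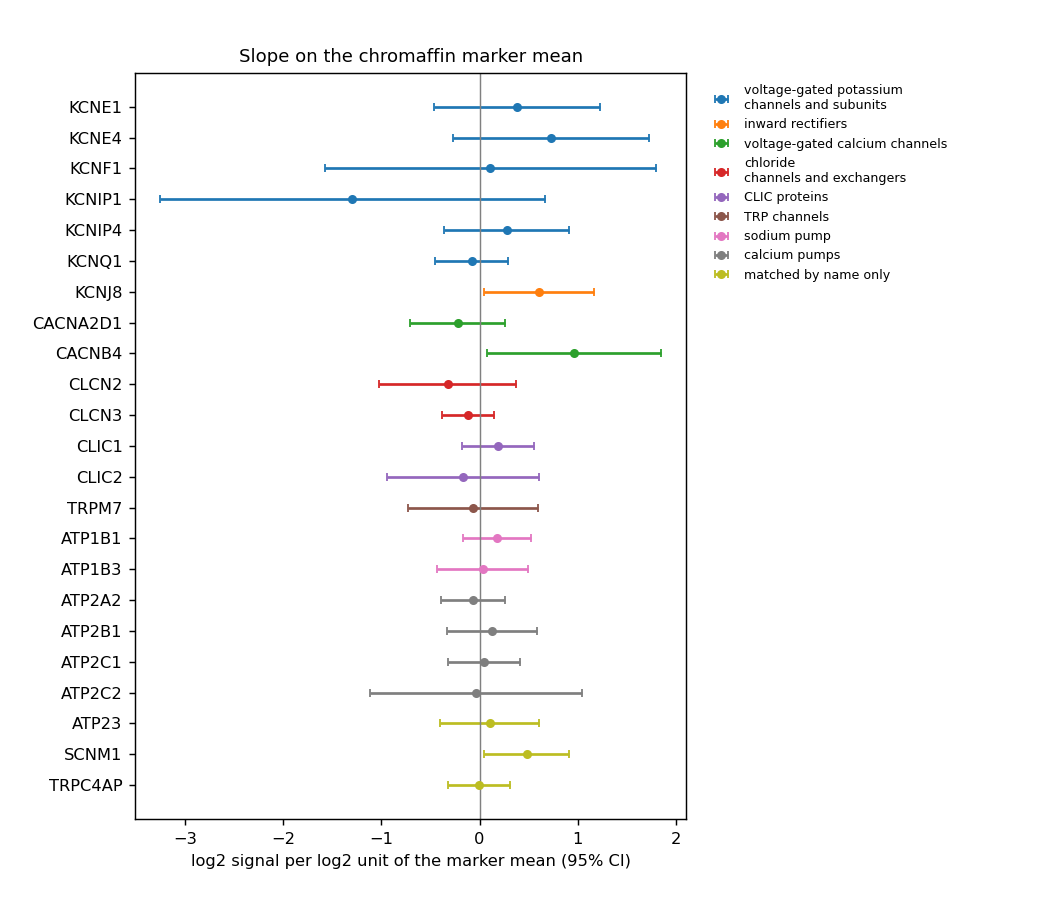
Slope of each of the 23 genes on the mean log2 signal of 10 chromaffin cell markers, from a model with stress group and array set (points, estimate; bars, 95% confidence interval; 16 animals). The intervals of CACNB4, KCNJ8 and SCNM1 exclude 0 before adjustment for the number of probe sets tested.

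Other genes of ion handling gave the same count of 0. Of 9 measured genes of calcium stores and store-operated entry 4 had a higher and 5 a lower mean in high stress. The store-operated channel ORAI1 had 0.20 (SE 0.12), the store release channel ITPR3 -0.26 (SE 0.23) and the store calcium sensor STIM2 -0.12 (SE 0.18). Of 4 regulators of pumps 3 were higher and 1 lower, with PLN, an inhibitor of the reticulum calcium pump, at -0.14 (SE 0.27). Of 11 genes of other channels or related proteins 7 were higher and 4 lower. Among them the mitochondrial outer membrane channels VDAC1 and VDAC2 had 0.10 (SE 0.08) and 0.13 (SE 0.15). SGK1, a kinase that raises sodium channel activity, had 0.04 (SE 0.29), and OXSR1, a kinase of chloride cotransport, -0.01 (SE 0.10). None of these 27 genes, KCNJ5 included, passed limma with or without the array set as a block, and none had an unadjusted p under 0.05 in either fit.

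The 24 genes below the limit had mean log2 signals from 2.24 to 6.11. They included the calcium-activated potassium channel genes KCNMA1, KCNMB1, KCNN3 and KCNN4, the inward rectifiers KCNJ1, KCNJ2 and KCNJ3, and the voltage-gated potassium channel genes KCNA2, KCNA6, KCNB2, KCNE2, KCNE3, KCNH2 and KCNIP2. The others were CACNB2, CACNB3, CACNG3, CLCN5, SCNN1A, SCNN1B, TRPV6, ATP1B4, ATP2A1 and ATP2A3. In a fit without the limit none of the 24 passed limma, and none had an unadjusted p under 0.05, against 3.78% of all 23999 probe sets. A signal under the limit does not show that a gene is silent, since a probe set may bind its transcript poorly.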

How the data were processed

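The values used are MAS5 intensity as deposited, on a linear scale, from the Affymetrix porcine genome array. The submitters' processing notes name Expression Console 1.1.1. The mean without the highest and lowest 2% was 500 on every array. Median signals per array were 116 to 147, and the number of arrays limits the precision. Values were taken to log2. Of 23999 probe sets besides 124 controls, 10069 had 1 symbol, 198 several and 13732 none, and 14399 passed the filter at the 40th percentile (29 of the 73 probe sets of the 47 genes). Of those 73, 66 matched the Sscrofa11.1 gene table by number, used for names only, and 0 symbols changed.

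All contrasts used limma 3.58.1 (R 4.3.3) with lmFit and eBayes, two-sided, and Benjamini-Hochberg adjustment over all probe sets tested. Marker means used an exact permutation test over 12870 splits. The model was run on simulated data first. The labels do not mention the array sets, which the dap control showed. The genes, lists and tests were chosen with earlier results of these data known. All tested genes are named, under a rule that takes the 12 smallest p in each direction and the 2 smallest in each kind of channel or pump. Alternatives were other filters, normalizations, a pseudocount of 23.5, priors, array weights, blocks, covariates, probe set means and leaving out each animal. Figures used matplotlib 3.10.9 in Python 3.11.15.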

Additional observations from a re-analysis of the deposited data

Results flagged for a closer look

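In 3 of 46 groups of 8 animals (the 23 genes in each stress group) 1 animal lay far from the other 7 by Dixon's ratio, the gap to the nearest animal over the whole range, at its 95% critical value. Chance gives about 1 in 20 groups. KCNE1 was lowest in high stress replicate 6 (ratio 0.540), at 7.68 against 8.60 to 9.39 in the other high stress animals. KCNIP1 was lowest in low stress replicate 5 (ratio 0.568), at 3.13 against 5.85 to 7.92 in the other low stress animals. That value of 3.13 lay well below the limit for testing. ATP2C2 was lowest in low stress replicate 6 (ratio 0.543), at 6.50 against 7.53 to 8.39 in the other low stress animals.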

How the results depend on the processing

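None of the channel and pump genes passed in the stress contrast under any of 30 alternatives, in the chromaffin slope under 29 or in the difference between array sets under 7. The median log2 fold change stayed between -0.09 and 0.06. The count over all probe sets was 0 except with the array set as a block, where 1 passed, with or without quantile normalization. The split of 10 higher and 13 lower genes became 11 and 12 with quantile normalization and 12 and 11 with arrays centred on their median. Of 684 gene values of the stress contrast under alternatives 634 kept their sign and 50 did not. The cause was not tested for any of the reversals that follow. CLCN3 reversed with quantile normalization, with or without the block (0.00062 in both), with the mean of its probe sets (0.020) and with centring (0.066), as did ATP1B3 with centring (0.056). Within the high-spike set ATP1B3 had 0.16, KCNE4 0.023, KCNIP1 -0.51, KCNJ8 -0.22, KCNQ1 0.0013 and SCNM1 -0.041. Within the low-spike set ATP2C1 had -0.019, CACNB4 0.10, CLCN3 0.028, CLIC2 -0.11, KCNE1 -0.21 and KCNF1 -0.22. With each animal left out in turn, ATP1B3 ranged from -0.077 to 0.053, ATP2C1 from -0.0065 to 0.10, CLCN2 from -0.18 to 0.021, CLCN3 from -0.044 to 0.030, CLIC2 from -0.00065 to 0.17, KCNIP1 from -0.15 to 0.54, KCNIP4 from -0.27 to 0.0044, KCNJ8 from -0.048 to 0.094, SCNM1 from -0.047 to 0.10, TRPC4AP from -0.0026 to 0.063 and TRPM7 from -0.21 to 0.023. For the slope on the chromaffin markers, TRPM7 reversed with array weights (0.038), quantile normalization (0.00495), a block for the animal number's first digit (0.086) and within the low-spike set (0.31). CLIC2 had 0.0044 with the digit block. ATP2A2 had 0.025 and KCNQ1 0.041 with centring. With stress group alone as a covariate ATP2A2 had 0.024, KCNIP4 -0.20 and KCNQ1 0.10. Within the high-spike set ATP2A2 had 0.22, KCNIP1 1.25 and KCNQ1 0.057, and within the low-spike set CLCN2 had 0.28, CLCN3 0.019 and CLIC1 -0.020. Without the 2 animals farthest from the median of the marker mean ATP2A2 had 0.025, KCNIP1 0.12 and KCNIP4 -0.019. With each animal left out, the slope ranged from -0.15 to 0.058 for ATP2A2, from -0.36 to 0.064 for CLIC2, from -1.83 to 0.018 for KCNIP1 and from -0.30 to 0.24 for TRPM7. The settings that leave an animal out within a set were chosen after seeing the data. The labels pair no animal of one group with one of the other. With a block for the first digit of the animal numbers, which both groups share, 0 probe sets passed in the stress contrast. Detection calls were not used here, so genes near the limit, such as KCNE4, KCNJ8 and KCNIP1, are the least certain.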
